A study of Canis lupus familiaris with 28 samples.

Results

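TR-T10 cells, from the dog, carry a tetracycline repressor that keeps introduced constructs silent until doxycycline is added. Across 28 polyA RNA-seq samples of this line, 59 of 29884 Ensembl dog transcripts were at least 1 unit higher on the log2(CPM + 1) scale in the libraries labelled YAP5SA than in wild-type cells of the same experiment, while cells with both p190 shRNAs, with or without YAP5SA+S94A, stayed within 0.4 of wild type. CPM is the share of a library's transcript counts scaled to 1000000, and the mean CPM of a group was taken before the logarithm. A last condition held confluent cells with the p190A shRNA within 0.7 of confluent cells with the p190B shRNA. The members were chosen by these measured values, the 4 group differences of the rule, so the values of those groups are descriptions and carry no test.

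Experiment 2 held confluent cells only, in 4 groups labelled with 3 samples each: YAP5SA, p190A and p190B shRNAs with YAP5SA+S94A, both shRNAs alone, and wild type. Experiment 1 held both shRNAs, the p190A shRNA, the p190B shRNA and wild type, at 2 densities, confluent and sub-confluent. Its 8 groups had 2 samples apiece. Knockdown and YAP expression were induced with 4 µg/ml doxycycline for 3 days, and the replated cells grew for 3 to 5 days more. Whether wild-type cells were given doxycycline is not stated, and each shRNA or YAP line had gone through its own viral transduction and drug selection, with the line holding both shRNAs made from the p190B shRNA line. The labels conflict on the YAP5SA group: the source field names YAP5SA alone, the genotype field adds both shRNAs, and the titles lack the AB carried by the titles of the other groups with both shRNAs.

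YAP is a transcriptional coactivator of the Hippo pathway that has no DNA-binding domain of its own and acts on genes mainly through TEAD transcription factors. LATS kinases phosphorylate YAP on serines, which keeps it out of the nucleus, and in epithelial cultures this happens more at high cell density. In YAP5SA those serines are alanines, and the S94A change removes the contact with TEAD. p190A and p190B are a pair of related GTPase-activating proteins. The deposited tables do not pair transcripts with genes, and 0 of the 29884 identifiers matched a RefSeq table of 43286 dog genes, so the members are given by identifier, no sequence is shown, and neither the knocked-down genes nor line markers could be read.

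Transcript counts per library ran from 10706716 to 17215544. The YAP5SA samples numbered 1 and 2 held identical values in every entry and were counted as 1 sample, which left 27 distinct libraries and n = 2 for YAP5SA, at 12425711 and 15675100 counts. Nothing in the labels says that replicates were separate cultures, so every p-value below measures only the spread between these samples. YAP5SA was present in experiment 2 alone, so any difference between the experiments cannot be told apart from the line when YAP5SA is set beside experiment 1. These are bulk samples, in which fewer cells with a transcript and less of it per cell cannot be told apart.

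The 59 members together took 1880 and 1817 CPM in the YAP5SA libraries, against 645 to 698 CPM in the other 9 libraries of experiment 2. In the 16 libraries of experiment 1 they took 647 to 976 CPM. A count was present for all 59 in each YAP5SA library and for 35 to 52 of them in each of the other 25. The summed level is carried by few transcripts.

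**Figure D1:**
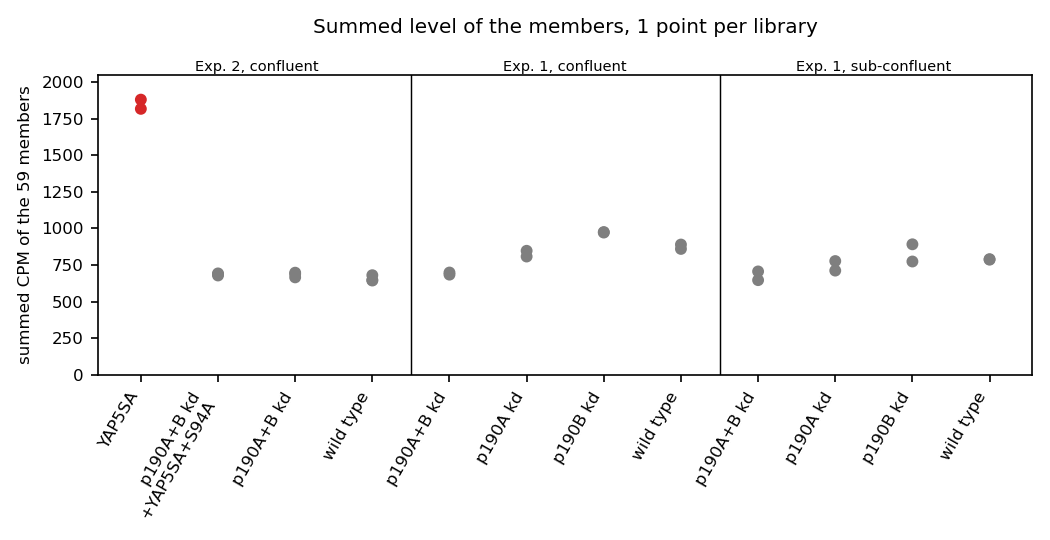
Summed level of the 59 members in each distinct library, in CPM on a linear axis from 0, by group and experiment, with 1 point per library. The 2 YAP5SA libraries lie at 1880 and 1817 CPM and the other 25 between 645 and 976 CPM.

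By their level in wild-type cells of experiment 2, the members fell into 2 classes, a division made after their values were seen. In 37 members, called low here, the wild-type mean was under 1 CPM: their median was 2.51 CPM (range 1.11 to 51.4) with YAP5SA and 0.166 CPM (0 to 0.739) in wild type. The other 22, called expressed, had a median of 27.04 CPM (3.41 to 501.7) with YAP5SA and 9.996 CPM (1.16 to 202) in wild type. The low members held 9.37% of the members' summed CPM with YAP5SA and the expressed members 90.6%. In some groups of experiment 1 low members were higher, with means of up to 4.09 CPM in confluent cells with the p190A shRNA. The expressed members were 2.04-fold to 4.42-fold higher with YAP5SA than in wild type of experiment 2, with a median of 2.63-fold.

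The difference between YAP5SA and wild type on the log2(CPM + 1) scale had a median of 1.48 in low members, with a maximum of 5.49, and a median of 1.24 in expressed members, with a maximum of 1.94. All 10 members with a difference of 2 or more were low. The pseudocount of 1 understates the change of low members, since it is larger than their wild-type level. The 3 members nearest the limit of 1 had differences of 1.01, 1.03 and 1.03, and the 3 nearest transcripts outside it had 0.990, 0.988 and 0.988. The largest absolute differences from wild type among members were 0.389 for both shRNAs and 0.393 for both shRNAs with YAP5SA+S94A, and the largest between the p190A and p190B shRNAs was 0.622.

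**Figure D2:**
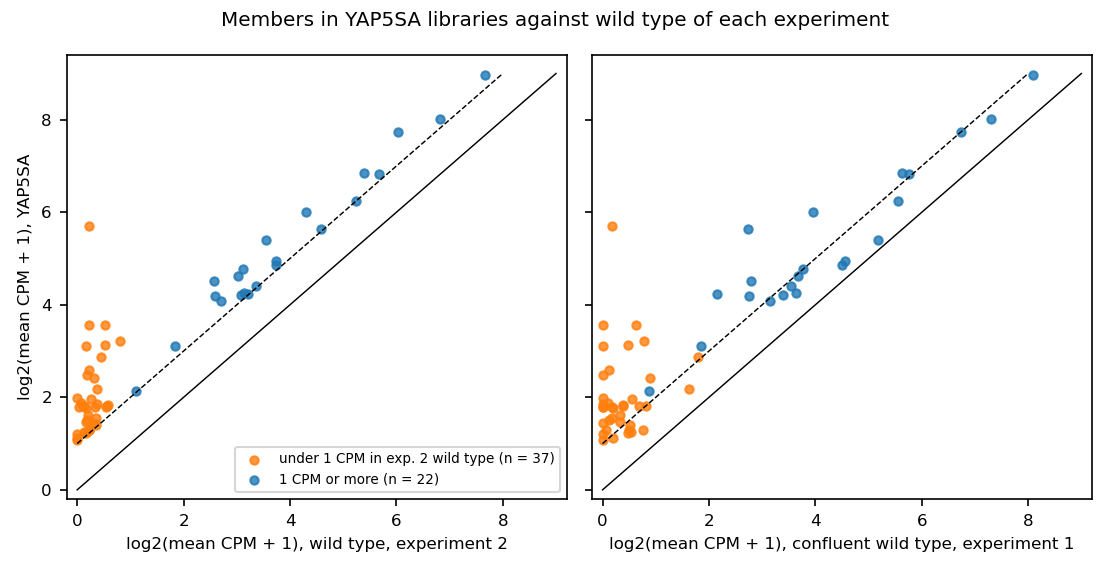
Each member's log2(mean CPM + 1) with YAP5SA (vertical axis) against wild type of experiment 2 (left) and confluent wild type of experiment 1 (right), with a solid line at equality and a dashed line at a difference of 1. Members under 1 CPM in experiment 2 wild type (37, orange) stand along the vertical axis and the other 22 (blue) run along the dashed line on the left, where the rule places all 59 on or above it.

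The other lines of experiment 2 could be read beside wild type, and both are bounded by the rule. Relative to both shRNAs alone, the YAP5SA mean was higher by 0.68 to 5.57 on the log2(CPM + 1) scale (median 1.44), and by 1 or more in 52 members. Relative to both shRNAs with YAP5SA+S94A it was higher by 0.75 to 5.48 (median 1.46), again by 1 or more in 52 members. A gap from both groups follows from the bounds of the rule.

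The member with the largest difference, ENSCAFT00000016681, had 54.0 and 48.7 CPM (671 and 764 counts) in the YAP5SA libraries. It had 0.141, 0.132 and 0.244 CPM with both shRNAs and YAP5SA+S94A, 0.298, 0 and 0 CPM with both shRNAs alone, and 0.264, 0 and 0.224 CPM in wild type of the same experiment. Across all 25 other libraries it never passed 0.495 CPM, a level reached in confluent cells with the p190B shRNA, and those libraries and YAP5SA did not overlap. In experiment 1 it had a count in both p190B shRNA groups and in wild type, and none in any library with the p190A shRNA.

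ENSCAFT00000007262, the next by difference, had 11.2 and 10.4 CPM (139 and 163 counts) in the YAP5SA libraries. With both shRNAs and YAP5SA+S94A it had 0.0704, 0.132 and 0.162 CPM, with both shRNAs alone 0, 0.150 and 0.0624 CPM, and in wild type 0.132, 0.152 and 0.224 CPM. In experiment 1 it was read only in confluent cells with both shRNAs, at 0.0822 and 0.13 CPM (1 and 2 counts). It was therefore close to silent in every line but the one labelled YAP5SA.

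Among expressed members the most abundant transcript had 502.6 and 500.9 CPM in the YAP5SA libraries. It had 202.9, 198.3 and 198.4 CPM with both shRNAs and YAP5SA+S94A, 194, 209 and 199.7 CPM with both shRNAs alone, and 213, 194 and 200.3 CPM in wild type. In experiment 1 its libraries ran from 148 to 289.9 CPM. This transcript was chosen for the text after its values were seen, as the most abundant member.

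The YAP5SA libraries lay close together for most members. The higher of their 2 CPM values exceeded the lower by a median of 9.14%, by 12.8% at most among expressed members and by 89.2% at most among low members. The fewest counts behind a member were 15 in replicate 1 and 12 in replicate 3. In 6 low members the 25 other libraries held under 10 counts in all, and in 2 of these they held none. For such members a level outside YAP5SA is limited by depth, as 3 counts correspond to 0.174 to 0.280 CPM in these 25 libraries. Intervals given here cover counting error only, and floors only that of the group without a count.

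**Figure D3:**
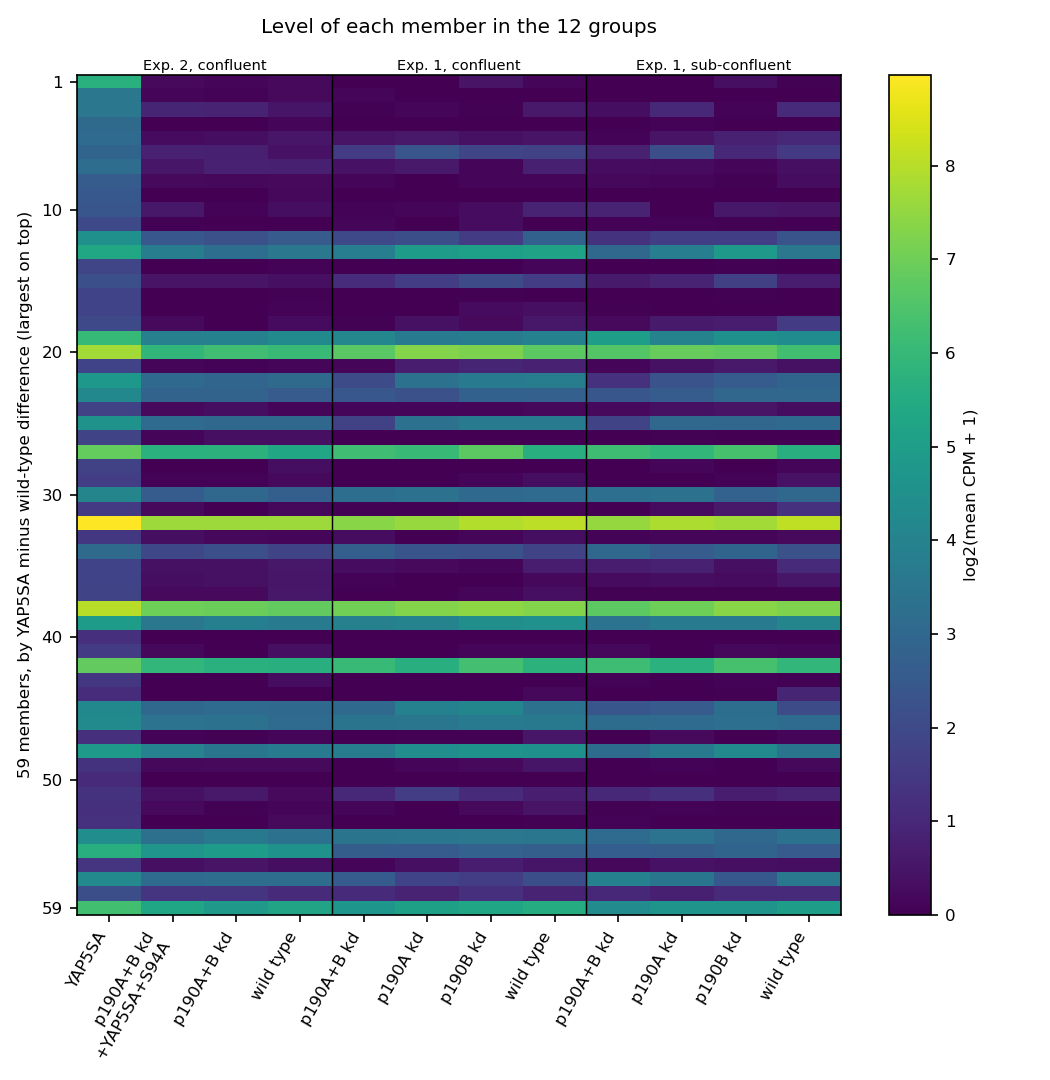
Level of each of the 59 members in the 12 groups, as log2(mean CPM + 1), with members in order of their YAP5SA minus wild-type difference and groups by experiment and density. The YAP5SA column is the highest of its row in 58 members, and the wide dark bands are members read at under 1 CPM in nearly all other groups.

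Experiment 1 holds values of the members that the rule did not use, apart from the bound between the single shRNAs at confluence. Both YAP5SA libraries stood above the other 9 libraries of experiment 2 in 59 of 59 members, where 10.3% of all transcripts with a count did so, a count largely set by the rule. They stood above all 16 libraries of experiment 1 in 52 members, against 12.2% of transcripts with a count. They stood above all 25 other libraries in the same 52, which are 33 low and 19 expressed members, against 5.38% of transcripts. The members' high level in the YAP5SA libraries, used by the rule, enters these counts too, so they describe the members and test nothing.

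In 7 members at least 1 library outside YAP5SA reached the YAP5SA range, and for 1 of them, a low member, the mean of confluent cells with the p190A shRNA was the highest of the 12 groups. Set against confluent wild type of experiment 1 in place of that of experiment 2, 40 members (29 low, 11 expressed) kept a difference of 1 or more. Against every group of experiment 1, 29 members (25 low, 4 expressed) did. These counts use the YAP5SA values that chose the members and carry no test. Between the wild-type cells of the experiments, 3 members were at least 1 unit higher in experiment 1 and 2 were at least 1 unit lower. One of these, an expressed member chosen after its values were seen, had 5.32 and 5.97 CPM in confluent wild type of experiment 1 and 21.3, 23.4 and 24.2 CPM in wild type of experiment 2.

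Transcripts raised by 1 or more with YAP5SA numbered 344, so the members are the part of these that the other bounds left. Of the 285 not kept, 80 failed only the bound on both shRNAs, 26 failed only that on YAP5SA+S94A, 163 failed both and 16 failed only the bound between single shRNAs. Of those outside the bound on both shRNAs, 161 lay above wild type and 82 below.

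Whether the members respond to p190 loss or to cell density was read in experiment 1, with edgeR's quasi-likelihood test on all 16 libraries and Benjamini-Hochberg adjustment over the 12845 transcripts that passed the filter on low counts. Calls were made where the adjusted p was under 0.05. All 22 expressed members and 10 of the 37 low members passed the filter. The other 27 were too low in these libraries to test. A low member passes through the groups in which it is highest. Counts over the 32 tested members are therefore given as descriptions beside the share of all transcripts called, and calls on single low members are descriptions too. Of the 32, 22 (68.8%) were called in at least 1 of the 6 pairwise comparisons, beside 64.3% of all transcripts tested, and 5 (15.6%) in 3 or more, beside 20.6%. Both shares lie near those of all transcripts. Fits that leave out 1 library have a group of 1, which is assumed to vary like the others and loosens the filter, so that 34 or 35 members were tested in them.

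In confluent cells with both shRNAs against confluent wild type, 12 of the 32 members were called, 3 higher and 9 lower. That is 37.5% of those tested, where 43.6% of all transcripts were called, 21.9% higher and 21.6% lower. The rule held the same comparison within 0.4 in the libraries of experiment 2, so this share is not free of the rule. The median log2 fold change of the 32 members was −0.33, beside −0.02 over all transcripts tested, but it was −0.69 to −0.36 with 1 library left out. Over the 22 expressed members, tested in every setting, it was −0.22 (range over settings −0.23 to −0.11). Leaving out replicate 1 of both shRNAs gave 7 called members, and 28.4% of all transcripts. ENSCAFT00000002305, an expressed member, had 6.82 and 4.22 CPM with both shRNAs and 2.24 and 2.99 CPM in wild type. It was higher by 1.08 on the log2 scale (SE 0.31, adjusted p = 0.012, edgeR), and the groups did not overlap. Leaving out replicate 1 of wild type or of both shRNAs ended the call (adjusted p = 0.092 and 0.15).

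ENSCAFT00000032307, also expressed, had 70.9 and 76.2 CPM with both shRNAs and 46.3 and 50.4 CPM in confluent wild type. The log2 fold change came to 0.62 with an SE of 0.17 (edgeR, adjusted p = 0.010). Without wild-type replicate 1 it was 0.57 (adjusted p = 0.068). It lay highest in experiment 1 in confluent cells with the p190B shRNA, at 113 and 93.8 CPM, a level near the 113.7 and 113.3 CPM of the YAP5SA libraries.

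The low members that fell most rest on few counts. ENSCAFT00000029700 had 0.0822 and 0.0650 CPM (1 count each) with both shRNAs and 0.841 and 0.864 CPM (9 and 11 counts) in wild type. The ratio of the groups was 0.0850 (95% exact interval 0.00964 to 0.350, adjusted p = 0.0091, edgeR). ENSCAFT00000027184 had 0.164 and 0 CPM (2 and 0 counts) with both shRNAs and 0.654 and 0.864 CPM (7 and 11 counts) in wild type, a ratio of 0.0945 (95% exact interval 0.0106 to 0.395, adjusted p = 0.018, edgeR). Both are thus already low in wild type, and neither pair of groups overlapped. Without replicate 2 of both shRNAs the adjusted p was 0.065 for ENSCAFT00000029700 and 0.14 for ENSCAFT00000027184, and without wild-type replicate 2 it was 0.085 for the second.

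In sub-confluent cells with both shRNAs against sub-confluent wild type, 13 members were called, 2 higher and 11 lower. That is 40.6% of those tested, beside 34.8% of all transcripts, of which 16.7% were higher and 18.1% lower. The median log2 fold change was −0.46 over the tested members, −0.24 over the expressed ones (range over settings −0.33 to −0.12) and 0.01 over all transcripts. Leaving out wild-type replicate 1 gave 8 called members and 21.8% of all transcripts, and leaving out replicate 2 of both shRNAs gave 7 and 20.8%. The 2 densities shared 7 called members, of which 2 were higher and 5 lower each time. That is 58.3% of the confluent and 53.8% of the sub-confluent calls, where over all transcripts the calls shared in the same direction were 54.3% of the confluent and 68.1% of the sub-confluent ones.

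The 2 members that rose at both densities were those already described. ENSCAFT00000002305 had 6.16 and 7.90 CPM with both shRNAs and 3.11 and 4.16 CPM in sub-confluent wild type, a log2 change (edgeR) of 0.92 with an SE of 0.29 (adjusted p = 0.023). ENSCAFT00000032307 had 61.8 and 82.3 CPM with both shRNAs and 47.7 and 51.2 CPM in wild type, a log2 change (edgeR) of 0.51 with an SE of 0.17 (adjusted p = 0.032). Leaving out wild-type replicate 1 or replicate 2 of both shRNAs ended both calls, with adjusted p of 0.17 and 0.18 for ENSCAFT00000002305 and of 0.16 and 0.36 for ENSCAFT00000032307, which also missed the threshold without wild-type replicate 2 (adjusted p = 0.082) and in the fit to only the groups compared (adjusted p = 0.057). In experiment 2 the same knockdown had 2.80, 4.88 and 3.00 CPM of the first, beside 2.77, 2.50 and 2.46 CPM in wild type, where the rule bounds the difference.

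Among the members that fell, ENSCAFT00000048753 had no count in either sub-confluent library with both shRNAs and 1.39 and 1.51 CPM (17 and 21 counts) in sub-confluent wild type. With 3 counts over the group as the floor, the wild-type mean was 14.7-fold that floor (adjusted p = 5.8e-04, edgeR). This floor leaves out counting error in wild type. ENSCAFT00000001583 had 0.0752 and 0.0581 CPM (1 count each) with both shRNAs and 1.06 and 1.00 CPM (13 and 14 counts) in wild type, a ratio of 0.0635 (95% exact interval 0.00732 to 0.253, adjusted p = 5.2e-04, edgeR). For both, each library with both shRNAs lay below each wild-type library. These were the only calls on named members that held in every setting tried. Both are low members that lay higher in wild type, and the filter favours low members that are high in a compared group. Their adjusted p are therefore descriptions.

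**Figure D4:**
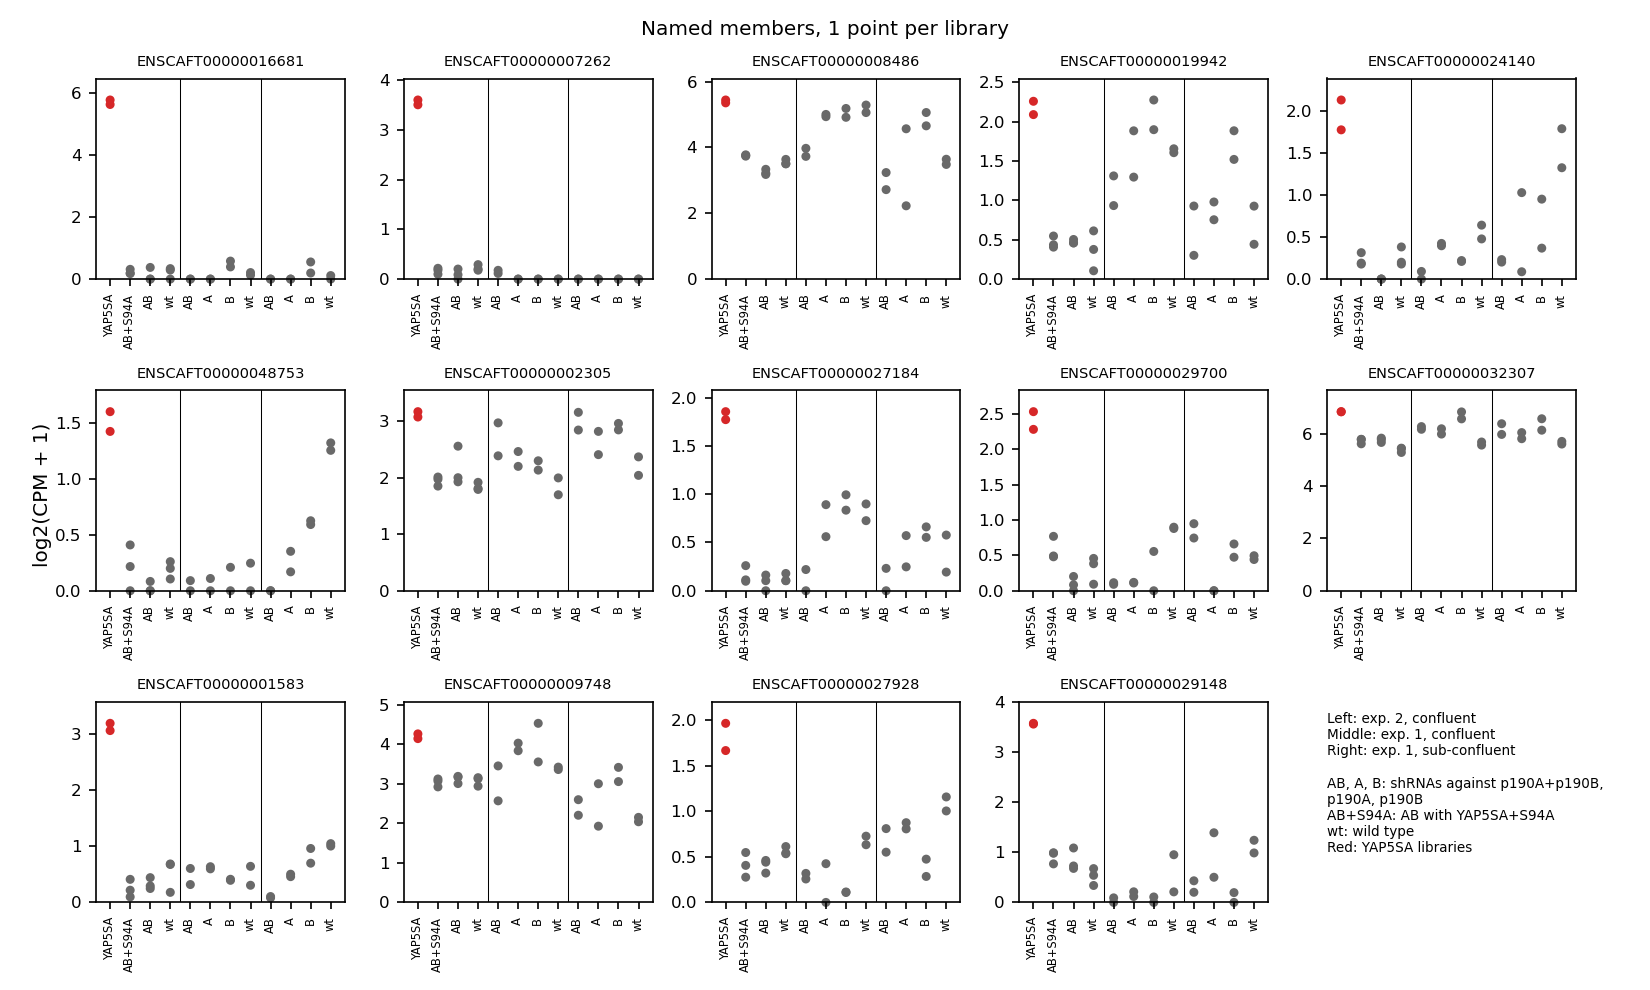
Level of 14 members named in the text, as log2(CPM + 1) with 1 point per distinct library, by group, with vertical lines between experiment 2 and the confluent and sub-confluent parts of experiment 1. The red YAP5SA points are the highest in most panels; ENSCAFT00000019942, ENSCAFT00000024140, ENSCAFT00000002305 and ENSCAFT00000009748 are panels in which other libraries reach them.

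The single shRNAs were tested in sub-confluent cells only, since the rule uses their confluent groups. With the p190A shRNA against wild type, 2 members were called, both lower. This is 6.25% of those tested, against 9.83% of all transcripts, of which 4.66% were higher and 5.17% lower. ENSCAFT00000029700 had no count in either library with the p190A shRNA (adjusted p = 0.042, edgeR). In wild type it had 0.409 and 0.358 CPM (5 counts each), a mean 3.90-fold the same floor. With both shRNAs at this density the transcript was not lower: its log2 change (edgeR) was 1.04 with an SE of 0.65 (adjusted p = 0.24). ENSCAFT00000048753 had 0.277 and 0.125 CPM (4 and 2 counts) with the p190A shRNA and 1.39 and 1.51 CPM in wild type, a log2 change (edgeR) of −2.81 with an SE of 0.69 (adjusted p = 0.022). Neither call was firm: without wild-type replicate 1 or 2 no member was called, beside 4.08% or 3.83% of all transcripts, and ENSCAFT00000029700 passed 0.05 in none of the fits that left out a library of the groups compared (adjusted p 0.10 to 0.13). Without p190A shRNA replicate 2 the adjusted p of ENSCAFT00000048753 was 0.10, and the 2 members then called were both higher (10.4% of all transcripts). In the fit to only the groups compared its adjusted p was 0.053. Without p190A shRNA replicate 1, 6 members were called, all lower (9.59% of all), and without either sub-confluent p190B shRNA replicate, 1 member was called (8.44%).

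With the p190B shRNA, 7 members were called, 5 higher and 2 lower. This is 21.9% of those tested, against 18.0% of all transcripts, of which 8.8% were higher and 9.23% lower. ENSCAFT00000019942 had 2.69 and 1.87 CPM with the p190B shRNA and 0.901 and 0.358 CPM in wild type, a log2 change (edgeR) of 1.88 with an SE of 0.54 (adjusted p = 0.029). ENSCAFT00000009748 had 9.67 and 7.31 CPM with the p190B shRNA and 3.11 and 3.44 CPM in wild type, a log2 change (edgeR) of 1.38 with an SE of 0.44 (adjusted p = 0.043). Neither pair of groups overlapped, and both transcripts are among the 7 members in which libraries outside YAP5SA reached its range. Leaving out wild-type replicate 1 or 2 gave 1 called member, beside 9.93% or 8.34% of all transcripts, and leaving out p190B shRNA replicate 1 or 2 gave 0 or 2, beside 7.56% or 9.65%. Leaving out either sub-confluent p190A shRNA replicate gave 12 of 35, beside at least 21.9% of all transcripts. ENSCAFT00000019942 lost its call without wild-type replicate 2 (adjusted p = 0.24) or p190B shRNA replicate 1 or 2 (adjusted p = 0.19 or 0.052), and ENSCAFT00000009748 without any 1 of the 4 libraries compared (adjusted p 0.087 to 0.24).

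On the other side, ENSCAFT00000029148 had 0.145 and 0 CPM (2 and 0 counts) with the p190B shRNA and 0.983 and 1.36 CPM (12 and 19 counts) in sub-confluent wild type, a ratio of 0.0634 (95% exact interval 0.00736 to 0.249, adjusted p = 0.026, edgeR). ENSCAFT00000027928 had 0.218 and 0.389 CPM with the p190B shRNA and 1.23 and 1.00 CPM in wild type, a log2 change (edgeR) of −1.85 with an SE of 0.60 (adjusted p = 0.049). Both lost their calls when any 1 of the 4 libraries was left out, with adjusted p of 0.056 to 0.15 for ENSCAFT00000029148 and 0.11 to 0.29 for ENSCAFT00000027928, which also missed the threshold with no filter (adjusted p = 0.053). The p190A and p190B shRNAs were each compared with wild type here, and the difference between them was not tested. Both comparisons, and that of both shRNAs at this density, share the 2 sub-confluent wild-type libraries.

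**Figure D5:**
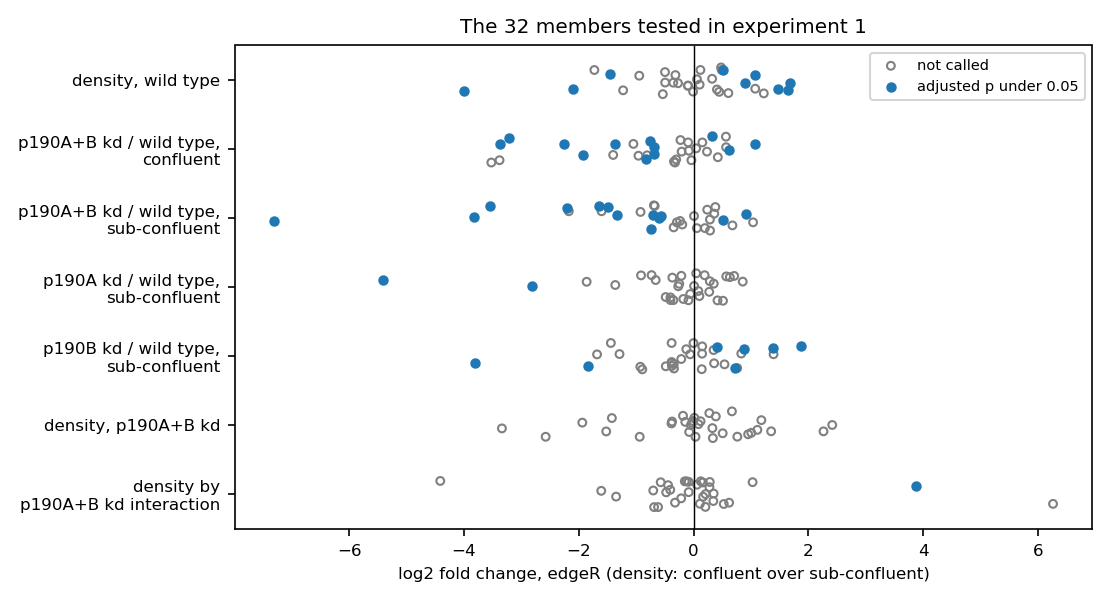
Log2 fold changes (edgeR) of the 32 members tested in experiment 1, with 1 row per comparison, filled points at adjusted p under 0.05 and open points for the rest. Filled points lie mostly left of 0 for both shRNAs against wild type (9 of 12 at confluence, 11 of 13 below it). Of all transcripts tested, 21.6% were called lower and 21.9% higher at confluence, and 18.1% and 16.7% in sub-confluent cells. The median of the 22 expressed members was −0.22 at confluence and −0.24 in sub-confluent cells. That of the 10 low members tested was −1.22 and −1.47. Low members pass the filter through the groups in which they are highest, so these values of low members are descriptions. The fitted values of the points near −7 and −5, and of the interaction point near 6, depend on the prior count, since 1 group had no count.

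Density was compared as confluent over sub-confluent cells. In wild type 9 members were called, 6 higher and 3 lower at confluence. That is 28.1% of those tested, beside 29.3% of all transcripts, of which 14.3% were higher and 15.0% lower. ENSCAFT00000019942 had 2.15 and 2.04 CPM at confluence and 0.901 and 0.358 CPM below it, a log2 change (edgeR) of 1.68 with an SE of 0.56 (adjusted p = 0.036). ENSCAFT00000008486 had 32.3 and 38.0 CPM at confluence and 11.5 and 10.2 CPM below it, a log2 change (edgeR) of 1.64 with an SE of 0.49 (adjusted p = 0.023). The confluent and sub-confluent libraries did not overlap in either case. ENSCAFT00000008486 lost its call without any 1 of these 4 libraries (adjusted p 0.059 to 0.14), and ENSCAFT00000019942 without any but sub-confluent replicate 1 (adjusted p 0.11 to 0.27).

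The level of ENSCAFT00000008486 in confluent wild type of experiment 1 approached the 42.4 and 39.9 CPM of the YAP5SA libraries, while confluent wild type of experiment 2 held 11.4, 10.3 and 10.4 CPM. In the opposite direction, ENSCAFT00000048753 had 0.187 and 0 CPM (2 and 0 counts) at confluence and 1.39 and 1.51 CPM below it, a ratio of 0.0588 (95% exact interval 0.00687 to 0.227, adjusted p = 0.0056, edgeR). ENSCAFT00000024140 had 0.560 and 0.393 CPM at confluence and 2.46 and 1.51 CPM below it, a log2 change (edgeR) of −2.10 with an SE of 0.73 (adjusted p = 0.043). The 9 calls are a share near that of all transcripts, so they are no result about the members. The wild-type calls depend on single libraries: leaving out confluent replicate 1 or 2 gave 3 or 0 called members, beside 14.6% or 13.5% of all transcripts, and leaving out sub-confluent replicate 1 or 2 gave 3 or 1, beside 17.6% or 10.7%. Without confluent replicate 2 the adjusted p of ENSCAFT00000048753 was 0.056, and that of ENSCAFT00000024140 was 0.083 to 0.20 without any 1 of the 4 and 0.11 with DESeq2.

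In cells with both shRNAs no member passed adjusted p under 0.05 for density with edgeR, where 1.81% of all transcripts did, 0.911% higher and 0.895% lower. Unadjusted, 11 of the 32 members (34.4%) had p under 0.05, beside 17.9% of all transcripts. DESeq2 called 1 of 56 members, beside 2.67% of all transcripts. Leaving out a library gave up to 4, beside 5.63% (without either sub-confluent p190A shRNA replicate). The density response differed between cells with both shRNAs and wild type in 1 member, 3.12% of those tested, against 3.27% of all transcripts, of which 2.42% had a positive and 0.849% a negative difference. ENSCAFT00000001583 had 0.247 and 0.520 CPM (3 and 8 counts) at confluence and 0.0752 and 0.0581 CPM (1 count each) below it with both shRNAs, and 0.560 and 0.236 CPM (6 and 3 counts) at confluence and 1.06 and 1.00 CPM below it in wild type. The density response was larger by 3.87 with both shRNAs (SE 0.91, log2 scale, adjusted p = 0.037, edgeR interaction term). Without any 1 of the 8 libraries compared its adjusted p was 0.053 to 0.18, and in the fit to only the groups compared it was 0.067.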

How the data were processed

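Each sample came with a table of raw counts per Ensembl dog transcript, deposited by the authors without normalization. Per the submitters' processing notes, the build was CanFam 3.1 and the tools were DESeq2 1.4.5, HTSeq 0.6.0 and STAR 2.3.1n, with no roles given. No source used here states if reads were counted by strand, so antisense, overlapping or near-identical transcripts are uncertain. The 5 entries that name no transcript stayed out of library sizes. Of reads aligned to 1 place, ambiguous reads were 20.3% to 23.1% and reads outside transcripts 21.2% to 23.8%, and alignments to several places were 24.4% to 30.7% of all entries.

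CPM was computed over transcripts only. Members were chosen on log2(group mean CPM + 1), with the repeated YAP5SA sample dropped. Members and lists were chosen with earlier results of these data known. The gene lists needed symbols and were not run. In experiment 1, edgeR 4.0.16 in R 4.3.3 (filterByExpr, TMM, robust quasi-likelihood fits of 8 group means, tested on simulated data) compared groups, and limma 3.58.1 came with it. Named are the 2 members with the largest YAP5SA difference and, per comparison, up to 2 called members in each direction with the largest fold changes and no overlap (no such condition for the interaction). Alternatives were RLE size factors, no filter, DESeq2 1.42.0, a replicate block, only the groups compared, and each replicate left out. For the members they were TMM library sizes, pseudocounts of 0.5 and 2, a minimum of 1 CPM and the repeated sample kept. Exact intervals for ratios condition on the summed counts.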

Additional observations from a re-analysis of the deposited data

Results flagged for a closer look

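The density response of ENSCAFT00000001583, confluent over sub-confluent, differed between cells with both shRNAs and wild type by 3.87 on the log2 scale (edgeR interaction term, adjusted p = 0.037). It rests on 1 count in each sub-confluent library with both shRNAs. No outlier could be sought within groups, as each had 2 or 3 libraries.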

How the results depend on the processing

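The number of members was 57 to 64 with 1 library left out, 63 with TMM library sizes (56 shared with the 59), 60 with the repeated sample kept, 74 with a pseudocount of 0.5 (45 shared) and 55 with a pseudocount of 2 (37 shared). A minimum mean of 1 CPM over all libraries left 27, since it removes low members. In experiment 1, leaving out 1 library gave 0 to 11 called members for density in wild type, 7 to 14 and 7 to 18 for both shRNAs at and below confluence, 0 to 6 for the p190A shRNA, 0 to 12 for the p190B shRNA, 0 to 4 for density with both shRNAs and 0 to 2 for the interaction. Without the filter on low counts, 6 members were called for the p190A shRNA, 14 for the p190B shRNA, 8 for density with both shRNAs and 2 for the interaction. DESeq2 called 1 for the p190A shRNA, 1 for density with both shRNAs and 0 for the interaction. Fits to only the groups compared called 0 for the p190A shRNA and 14 for the p190B shRNA. For these the cause was not tested.

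The labels do not say if same-numbered libraries share more than a number. Their deviations correlated at 0.21 to 0.29 in the comparisons of shRNAs with wild type. For density the correlation was 0.0098 in wild type and −0.19 with both shRNAs. The replicate block gave 10 called members for density in wild type, 12 and 13 for both shRNAs, 2 and 8 for the p190A and p190B shRNAs, 0 for density with both shRNAs and 1 for the interaction. For density with both shRNAs, where the correlation was −0.19, crossing the numbers, an alternative chosen after seeing the data, gave 0 members and 214 transcripts called in all. Over 19 results on named members, 304 of 392 alternatives left the call in place, 88 lost it and 0 turned its direction. Calls on ENSCAFT00000027928, ENSCAFT00000009748, ENSCAFT00000029700, ENSCAFT00000024140 and ENSCAFT00000001583 also missed the threshold, at adjusted p of 0.051 to 0.066, without libraries of groups not compared. Every such fit also loosens the filter and so changes the adjustment. Low members are limited by depth, and 27 members could not be tested.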
